A study of Mus musculus with 12 samples.

Results

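Regulatory T cells (Tregs) from the injured tendon of newborn mice were compared with Tregs from the spleen of newborn mice, gene by gene. The comparison takes 3 libraries titled neonatal tendon Treg and 3 titled neonatal spleen Treg, which are 6 of the 12 bulk RNA-seq libraries of the series. The other libraries are the same pair of tissues from adult mice (3 of tendon and 3 of spleen). All animals were C57BL/6, the cells were sorted by flow cytometry 14 days after the tendon injury, and they were lysed for RNA straight after sorting. Every group therefore comes from an injured animal, and no uninjured tendon or spleen is part of the design. The labels give the age only as neonatal or adult and name neither the sorting gate, the number of cells, the sex nor whether animals were pooled. Nothing says that the libraries of a group came from separate animals, so the p-values measure the spread between these libraries, which may be technical. The question is how Tregs that sit in a healing tendon differ in their transcripts from Tregs of a lymphoid organ at the same age.

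Tregs are the CD4 T cells that hold immune responses in check, and the transcription factor Foxp3 defines the lineage. In lymphoid organs many of them are in a resting state, recirculate through blood and lymph, and carry the transcription factors Tcf7 and Lef1. Tregs that enter tissues take on an effector program that includes the suppressive cytokine Il10, the transcription factor Prdm1 (Blimp-1) and the IL-33 receptor Il1rl1 (ST2), and tissue Tregs are known for a part in repair. Tendon itself is made of collagen-producing fibroblasts marked by Tnmd and Col1a1, with resident macrophages between them.

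The neonatal libraries held between 420731 and 18410744 counts, a 43.8-fold range, and library 1 of each tissue was the deepest. Libraries 2 and 3 therefore gave the least precise values for weakly expressed genes. Tendon libraries correlated with each other across genes at 0.763 to 0.848, spleen libraries at 0.883 to 0.93, and the tissues with each other at 0.58 to 0.683, as a description of the libraries. Adult tendon library 3 stood apart from its group: B cell genes took 4.38% of its counts, against 0.117 and 0.356% in the other adult tendon libraries, and macrophage genes 1.53%, against 0.0368 and 0.107%. It enters no neonatal mean but shares in the estimate of the spread, so counts of calls are also given without it. The summed rRNA-like share, a sign of library quality, was 1.76, 9.19 and 12% of the counts of the neonatal tendon libraries, in their order, and 1.21, 4.57 and 4.22% of those from spleen. Only tendon libraries 2 and 3 had a share above 5%. A model term for such a share therefore sets tendon library 1 alone against spleen, and it cannot test the effect of library quality.

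Foxp3 was measured at 18.2, 47.7 and 88.5 TMM-scaled CPM (counts relative to library size) in neonatal tendon libraries 1 to 3, and at 46, 53.9 and 66 CPM in neonatal spleen libraries 1 to 3. The tissues overlapped, and the difference of -0.18 ± 0.49 (SE) on the log2 scale was not called (adjusted p = 0.85). Without tendon library 1 the value was 0.27, so its sign rests on that library. Foxp3 shares exonic sequence with Flicr, whose 594 counts in the neonatal libraries compare with 1382 for Foxp3. Reads of the 2 genes may be mixed. The genes of T cells in general behaved differently. Trbc2, the constant region of the T cell receptor beta chain, was measured at 188, 119 and 201 CPM in tendon and 1450, 872 and 917 CPM in spleen. Cd3e, a signalling chain of that receptor, was at 121, 92.1 and 273 CPM in tendon and 552, 529 and 587 CPM in spleen. No tendon library reached the lowest spleen library in either gene. Trbc2 differed by -2.68 ± 0.39 (adjusted p = 0.000188) and Cd3e by -1.79 ± 0.42 (adjusted p = 0.00722). Of 20 T cell genes, 16 were lower in tendon, none was higher, and the median log2 difference was -1.72. Cd28, a costimulatory receptor, was among those not called (-0.3).

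The markers of other cell types also differed in their share of the counts. The 20 macrophage or monocyte genes took 1.74 to 3.66% of the counts in tendon and 0.0809 to 0.115% in spleen, a 26.6-fold ratio of geometric means. Lyz2, the lysozyme of macrophages, was at 11400, 6890 and 5110 CPM in tendon and 112, 177 and 114 CPM in spleen, and Csf1r, the receptor for macrophage colony-stimulating factor, at 1930, 1700 and 1370 CPM in tendon and 33, 75.2 and 34.3 CPM in spleen. All 20 of these genes were higher in every tendon library than in any spleen library (17.6% of all genes were), and 15 were called higher (10.8% of all genes were). The 16 tendon fibroblast genes took 0.0844 to 0.472% of counts in tendon and 0.000661 to 0.00147% in spleen. Tnmd, the tendon cell marker tenomodulin, was at 6.22, 110 and 98 CPM in tendon and at 0 in every spleen library, at least 157-fold higher against a floor of 3 counts over the spleen libraries. Spleen libraries also held no count of Col3a1, Scx, Fmod, Dcn, Lum, Thbs4 or Pdgfra. Conversely, pan-T genes took 0.181 to 0.336% in tendon and 0.97 to 1.28% in spleen, B cell genes 0.061 to 0.0856% and 0.181 to 0.274%, and erythroid genes 0.138 to 0.219% and 0.318 to 0.395%. The plasmacytoid dendritic cell share was 0.0265 to 0.0433% in tendon and 0.0901 to 0.193% in spleen, and the CD8 T or NK cell share 0.00723 to 0.0182% and 0.0218 to 0.0296%. Cd8a, Klrb1c, Ncr1, Gzma, Prf1 and Eomes were at 0 in all tendon libraries. Each of these shares separated the tissues without overlap, with a two-sided exact permutation p of 0.1, the smallest that 3 libraries against 3 can give (0.21 after Benjamini-Hochberg adjustment over 21 lists). The summed mural cell, mast cell and Schwann cell genes were also higher in every tendon library, at the same p. Endothelial genes did not separate the tissues as a sum (0.0212 to 0.0542% and 0.0209 to 0.0258%), although 6 of the 8 tested genes were called higher. In these bulk samples, a different number of cells of a type and a different amount of RNA per cell cannot be told apart. What part the counts of other cell types had in the differences given below was not tested.

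**Figure D1:**
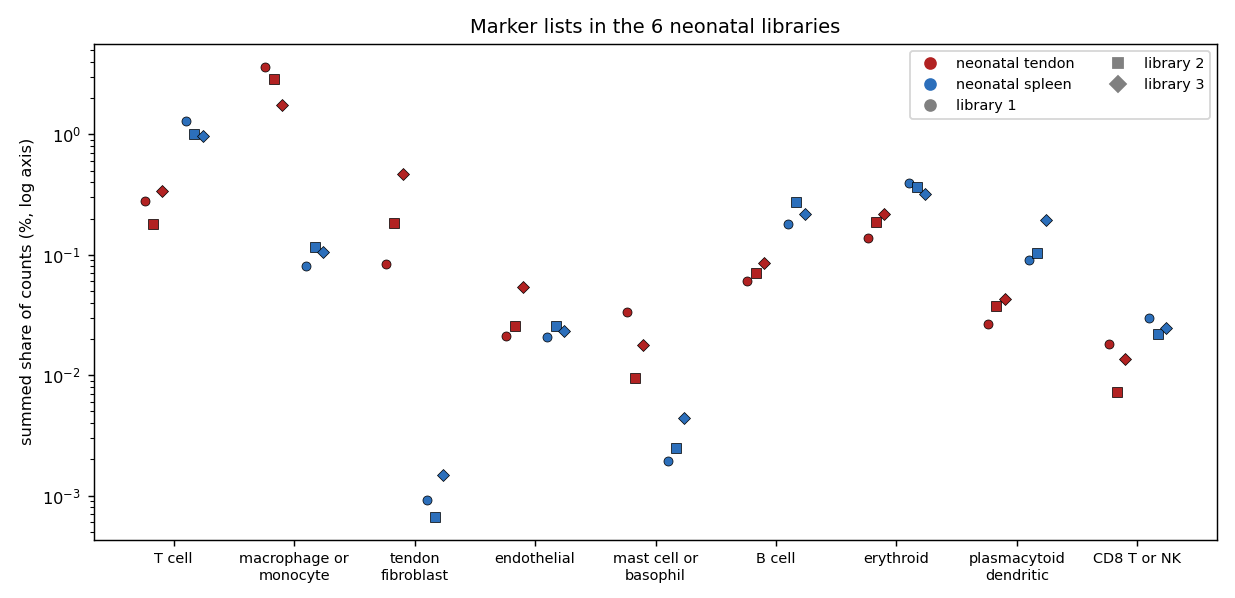
Summed share of counts, in percent on a log axis, of 9 marker lists in each of the 6 neonatal libraries (tendon red, spleen blue, 1 symbol per library number). Macrophage and tendon fibroblast genes lie higher in every tendon library (1.74 to 3.66% against 0.0809 to 0.115% for macrophage genes), T cell, B cell, erythroid, plasmacytoid and CD8 T or NK genes lie lower, and endothelial genes overlap.

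Across 13049 genes tested, 2109 (16.2%) were called in neonates, 1406 of them (10.8%) higher in tendon and 703 (5.39%) lower, by edgeR's quasi-likelihood test at a Benjamini-Hochberg adjusted p under 0.05. The shares of 10.8 and 5.39% are the background for counts of called list members in this fit of 12 libraries. The genes called higher had a median log2 difference of 3.78 and the genes called lower one of -1.91. The median over all genes was -0.15 with the TMM scaling, -0.01 with DESeq2's size factors and -0.83 on the deposited TPM values, so a small difference can take either sign with the scaling. On TPM, limma called 875 genes higher and 1982 lower in tendon, a split that leans the other way. Without adult tendon library 3, 3339 of 13956 genes tested were called, which included all 2109, and 2028 of the 3339 were higher in tendon. List counts from that fit stand against this larger background, so a larger list count there does not by itself set the list apart. Without neonatal spleen library 1 the count fell to 1150, and without neonatal spleen library 3 to 1283.

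**Figure D2:**
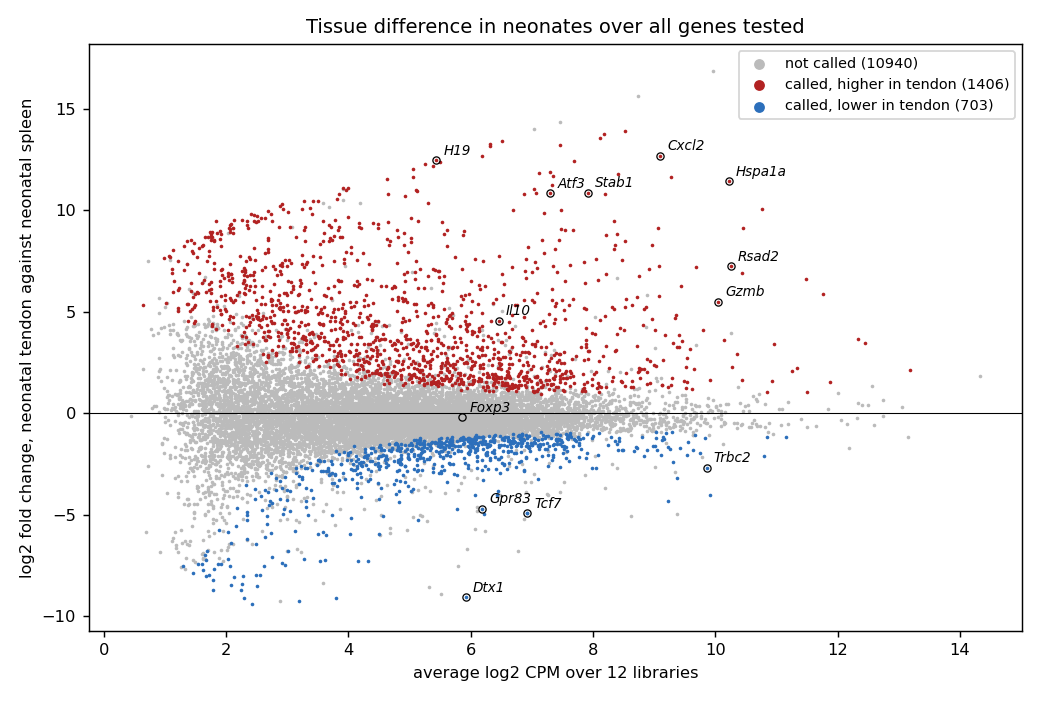
Log2 fold change of neonatal tendon against neonatal spleen (vertical axis) over the average log2 CPM of 12 libraries (horizontal axis), 1 point per gene tested. The 1406 genes called higher in tendon (red) reach further from 0 than the 703 called lower (blue), Foxp3 lies near 0 among the genes not called, and values of genes with no count in spleen depend on the prior count of the fit.

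Treg identity genes went in both directions. Of 16 genes, 1 was higher in tendon, 5 were lower and 10 were not called, with a median of -0.04 that was between -0.92 and 0.1 under other settings. Leaving out adult tendon library 3 gave 2 higher and 6 lower, and over all fits that left out 1 library 1 to 2 were higher and 4 to 6 lower. Entpd1, the ectoenzyme CD39 that degrades extracellular ATP, was the gene that rose, from 29.3, 43.8 and 33.8 CPM in spleen to 204, 251 and 246 CPM in tendon. The difference was 2.73 ± 0.35 on the log2 scale (adjusted p = 4.84e-05). Its partner Nt5e, the CD73 enzyme that makes adenosine from AMP, was lower in every tendon library, at 38.9, 19.1 and 66.9 CPM against 201, 231 and 229 CPM in spleen (-2.43 ± 0.45, adjusted p = 0.00123). The transcripts of these 2 enzymes thus differed in opposite directions in the bulk libraries. Which cells they came from, and what part macrophage transcripts had in the rise of Entpd1, was not tested. Ikzf4, the transcription factor Eos, was at 21.8, 19.1 and 43 CPM in tendon and 98.5, 91.5 and 136 CPM in spleen (-2.02 ± 0.46, adjusted p = 0.00564). Izumo1r, the folate receptor 4 of Tregs, fell from 329, 303 and 269 CPM in spleen to 17.7, 52.4 and 76.5 CPM in tendon (-2.69 ± 0.46, adjusted p = 0.000688). Gpr83, a G protein-coupled receptor of Tregs, was nearly absent from tendon, with 6.79, 0 and 14.3 CPM against 206, 184 and 126 CPM (-4.71 ± 0.78, adjusted p = 0.000874). Il2rb, the beta chain of the IL-2 receptor, was lower by -1.8 ± 0.47 (adjusted p = 0.0136), a call that was lost without tendon library 1 (-1.72) or tendon library 2 (-1.64). Il2ra, the alpha chain CD25, was at 175, 195 and 316 CPM in tendon and 195, 274 and 246 CPM in spleen, which overlap. Its difference of -0.06 ± 0.43 (adjusted p = 0.943) turned to 0.06 with DESeq2's size factors. The inhibitory receptor Ctla4 was higher in every tendon library (389, 315 and 316 CPM against 268, 155 and 219 CPM) but was not called (0.67 ± 0.39, adjusted p = 0.272), and Ikzf2, the transcription factor Helios, was not called either (-0.87 ± 0.45, adjusted p = 0.218).

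Of the 21 genes of the effector or tissue Treg list, 10 were called higher in tendon and none lower, with a median log2 difference of 1.51. In 16 genes all tendon libraries lay above all spleen libraries (17.6% of all genes did), and in 1 all lay below (18.9% of all genes did). Gzmb, the cytotoxic protease granzyme B that effector Tregs also use, was measured at 2910, 1660 and 2120 CPM in tendon and 69.9, 28.8 and 47.2 CPM in spleen (5.5 ± 0.57, adjusted p = 6.96e-06). Il10 was measured at 302, 337 and 186 CPM in tendon and 4.82, 18.8 and 14.5 CPM in spleen (4.57 ± 0.51, adjusted p = 1.24e-05). The lowest tendon library was above the highest spleen library by a wide margin in both genes. Havcr2, the inhibitory receptor TIM-3, rose by 3.8 ± 0.74 (adjusted p = 0.00189) from 1.61 to 5.01 CPM in spleen to 22.8 to 50.8 CPM in tendon. Prdm1 was at 120, 240 and 127 CPM in tendon and 27.6, 35.1 and 26.8 CPM in spleen (2.45 ± 0.57, adjusted p = 0.0067). The receptors that mark tissue Tregs rose less. Il1rl1 was at 123, 151 and 203 CPM in tendon and 36.7, 48.9 and 53.6 CPM in spleen (1.78 ± 0.53, adjusted p = 0.0289). Klrg1, a lectin-like receptor of terminally differentiated effector cells, was at 564, 315 and 507 CPM against 191, 158 and 138 CPM (1.51 ± 0.35, adjusted p = 0.00733). Ccr8, a chemokine receptor of tissue Tregs, rose by 1.65 ± 0.42, Tnfrsf9 (4-1BB, a costimulatory receptor) by 1.61 ± 0.4, and the transcription factors Rora and Maf by 1.71 ± 0.5 and 1.37 ± 0.37. The costimulatory receptor Icos and the integrin Itgae (CD103), which binds E-cadherin, were higher in every tendon library but not called (1.07 ± 0.37 and 1.03 ± 0.49, adjusted p = 0.0585 and 0.168).

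These smaller effector differences kept their direction when a library was left out, but several lost their call. Il1rl1 lost it without any 1 of spleen libraries 1, 2 and 3 (1.61, 1.79 and 1.88) or tendon libraries 2 and 3 (1.8 and 1.59). Rora lost it without spleen libraries 1, 2 or 3 (1.89, 1.54 and 1.66) or tendon libraries 1 or 3 (1.59 and 1.69). Ccr8 was not called without spleen library 2 (1.5), spleen library 3 (1.63) or tendon library 1 (1.36), Tnfrsf9 without spleen library 2 (1.54) or 3 (1.46), and Klrg1 without spleen library 3 (1.38). Maf was not called without spleen library 1 (1.26), spleen library 2 (1.17) or tendon library 3 (1.18). Over the fits that left out 1 library, between 5 and 15 effector genes were higher and none was lower, with 15 when adult tendon library 3 was left out and 5 without spleen library 2 or 3. Gzmb, Il10, Havcr2 and Prdm1 were called in each of these fits. Prdm1 was not called by limma on TPM (1.46) or with neonatal libraries 2 and 3 only (2.57). With the 5% rRNA-like term, which leaves tendon library 1 alone for neonatal tendon, its value was 2.02.

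**Figure D3:**
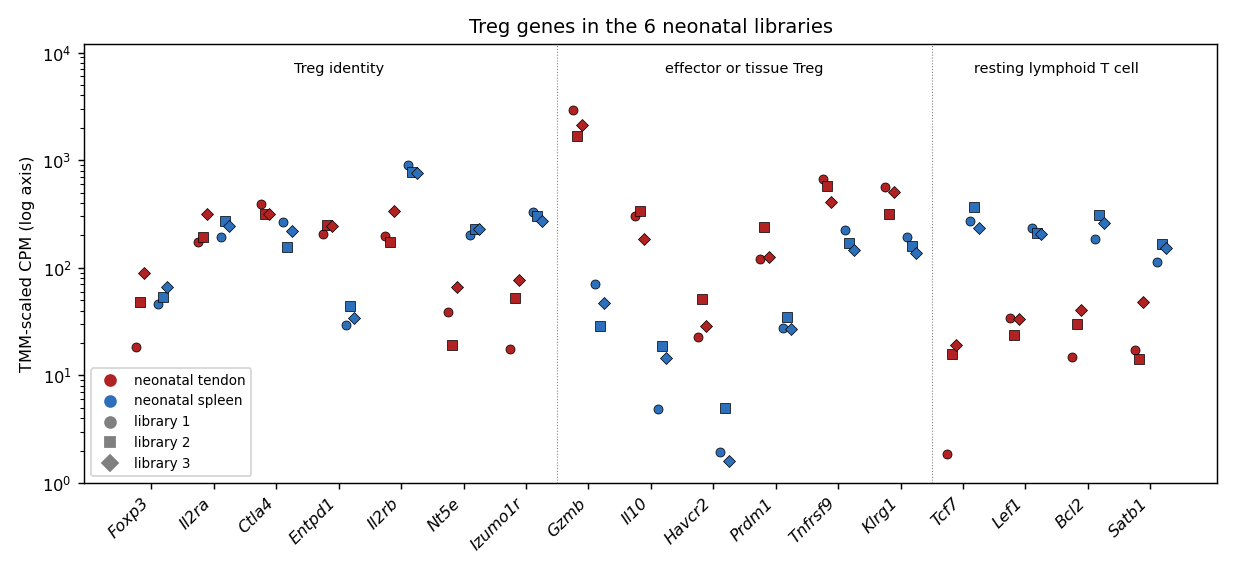
TMM-scaled CPM on a log axis of 17 Treg genes in the 6 neonatal libraries (tendon red, spleen blue, 1 symbol per library number). The identity genes are mixed, with Entpd1 higher and Izumo1r lower in every tendon library. The 6 effector genes shown lie higher in every tendon library and the 4 resting genes shown lie lower.

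Scaled to T cell transcripts, the effector genes stood further apart. Per 1000 counts of the 20 T cell genes, Foxp3 had 5.84, 22.7 and 26.2 counts in tendon and 4.34, 7.08 and 8.89 counts in spleen, which overlap (two-sided exact permutation p = 0.3, 0.341 after adjustment over 50 genes). All 21 effector genes had every tendon library above every spleen library on this scale, with a mean ratio of 140 for Gzmb and 64 for Il10. T cell genes took a smaller share of tendon counts, and 51.2% of all genes tested also lay higher in every tendon library on this scale and 2.23% lay lower. Dividing by T cell counts does not show which cells a transcript came from. What part macrophage transcripts had in these ratios was not tested. Of the 16 identity genes, 9 lay higher, among them Entpd1 with a ratio of 19.7, and 2, Izumo1r and Gpr83, lay lower. Of the 13 genes of the resting list described next, 3 lay higher and 4 lower.

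Of the 13 genes of resting, recirculating lymphoid T cells, 7 were lower in tendon, none was higher, and the median difference was -1.81. Tcf7, a transcription factor of naive and memory T cells, was at 1.84, 15.9 and 19.1 CPM in tendon and 274, 363 and 234 CPM in spleen (-4.93 ± 0.89, adjusted p = 0.00256). Lef1 was at 34.2, 23.8 and 33.5 CPM in tendon and 236, 210 and 206 CPM in spleen (-2.82 ± 0.34, adjusted p = 3.1e-05). Both genes were lower in every tendon library than in any spleen library. Bcl2, a survival factor, differed by -3.23 ± 0.51 (adjusted p = 0.00035), the chromatin organiser Satb1 by -2.55 ± 0.43 (adjusted p = 0.000638) and the transcription factor Ets1 by -1.81 ± 0.41 (adjusted p = 0.00565). S1pr1, the receptor for the lipid that draws lymphocytes out of tissues, was at 186, 172 and 184 CPM in tendon and 530, 385 and 359 CPM in spleen (-1.23 ± 0.33, adjusted p = 0.015), a call lost without spleen library 1 (-1.05) or tendon library 2 (-1.21). Il7r, the receptor of the survival cytokine IL-7, overlapped between the tissues at 189, 246 and 201 CPM and 299, 217 and 262 CPM (-0.29 ± 0.35, adjusted p = 0.636). Over the fits that left out 1 library, between 6 and 11 of the 13 were lower, with 11 when adult tendon library 3 was left out. The pan-T genes, of which 16 of 20 were lower, had a median of -1.72. Per 1000 T cell counts, S1pr1 took the other direction, at 59.6, 81.6 and 54.5 in tendon and 50, 50.6 and 48.4 in spleen, a ratio of 1.31. Klf2, a transcription factor of quiescent T cells, and Il7r also lay higher in every tendon library on that scale (ratios 1.56 and 2.58). Tcf7, Lef1 and Bcl2 lay lower in every tendon library (0.131, 0.414 and 0.332), while Satb1 and Ets1 overlapped.

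The chemokine receptor and homing list was divided. Of 21 genes, 5 were higher in tendon and 9 lower, with a median of -1.23. These counts were 7 and 12 without adult tendon library 3, and 3 were higher without spleen library 2, spleen library 3 or tendon library 1. Ccr1, a receptor for the inflammatory chemokines Ccl3 and Ccl5, was at 298, 343 and 208 CPM in tendon and 2.39, 1.25 and 1.07 CPM in spleen (7.2 ± 0.49, adjusted p = 5.93e-08). Ccr1 is also a receptor of monocytes and macrophages. Cxcr4, which binds Cxcl12, rose from 4.37, 11.3 and 8.58 CPM to 60.5, 116 and 83.7 CPM (3.54 ± 0.69, adjusted p = 0.00191). Receptors and adhesion molecules that fell included those of lymphoid and gut recirculation. Itgal, the alpha chain of LFA-1, was at 97.6, 130 and 148 CPM in tendon and 458, 630 and 484 CPM in spleen (-2.07 ± 0.39, adjusted p = 0.00139). Itgb7, the beta chain of the gut homing integrin, was at 395, 173 and 313 CPM against 1260, 957 and 764 CPM (-1.75 ± 0.41, adjusted p = 0.00753). Selplg, the selectin ligand PSGL-1, differed by -1.63 ± 0.32 (adjusted p = 0.0023), Cxcr3, a type 1 chemokine receptor, by -2.21 ± 0.43 (adjusted p = 0.00214) and Ccr9, a gut homing receptor that plasmacytoid dendritic cells share, by -3.73 ± 0.8 (adjusted p = 0.00438).

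Of 23 interferon response genes, 14 were higher in tendon, none was lower, and the median difference was 4.54. The count was also 14 without adult tendon library 3. Promoter sequence is shown for 3 of the called genes because genes of this program are known to be switched on through a shared DNA element, the interferon-stimulated response element. The sequences are the 250 bases before the RefSeq start on GRCm38.p6, written 5′ to 3′ on the strand of the gene, with matches to the element's core (GAAA, any 2 bases, then GAAA again) on either strand in capitals. They cover chr4:156200819-156201068 (minus strand) for Isg15, chr19:34640639-34640888 (plus strand) for Ifit1 and chr12:26456453-26456702 (minus strand) for Rsad2.
Isg15: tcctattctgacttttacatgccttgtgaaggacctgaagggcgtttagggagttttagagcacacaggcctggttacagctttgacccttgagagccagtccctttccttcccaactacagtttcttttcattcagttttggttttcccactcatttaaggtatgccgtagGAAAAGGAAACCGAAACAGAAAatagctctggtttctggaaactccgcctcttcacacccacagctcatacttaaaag
Ifit1: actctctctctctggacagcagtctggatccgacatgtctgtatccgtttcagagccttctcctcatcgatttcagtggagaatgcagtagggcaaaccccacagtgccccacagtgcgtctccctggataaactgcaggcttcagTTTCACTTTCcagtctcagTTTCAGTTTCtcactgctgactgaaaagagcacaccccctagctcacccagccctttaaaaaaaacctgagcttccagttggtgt
Rsad2: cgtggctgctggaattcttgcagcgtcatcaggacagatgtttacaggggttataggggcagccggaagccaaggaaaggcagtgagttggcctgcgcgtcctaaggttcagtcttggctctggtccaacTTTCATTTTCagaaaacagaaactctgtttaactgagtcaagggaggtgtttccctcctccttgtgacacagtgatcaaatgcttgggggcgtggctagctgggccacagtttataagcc
The core ends 56 bases before the start in Isg15, 75 in Ifit1 and 110 in Rsad2. In Isg15, 3 matches overlap in 1 run. Of the 18 list genes with a promoter window in the RefSeq table, 10 held the core, 10 of 19 windows (52.6%), and 2.98% of all 32851 windows of the same length did. Such a match is a description of the sequence and not a bound site.

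Rsad2, the antiviral enzyme viperin, was at 3650, 7840 and 2230 CPM in tendon and 17.7, 48.9 and 26.3 CPM in spleen (7.25 ± 0.84, adjusted p = 7.59e-05). Ifit1, which binds foreign RNA, was at 1680, 2100 and 880 CPM in tendon and 22.5, 46.4 and 20.9 CPM in spleen (5.73 ± 0.56, adjusted p = 3.95e-06). Isg15, a ubiquitin-like modifier, was at 476, 807 and 208 CPM in tendon and 11, 23.8 and 17.2 CPM in spleen (4.91 ± 0.59, adjusted p = 3.24e-05). In all 3 genes the tendon libraries were far above the spleen libraries, and tendon library 2 was the highest. That held for the whole group, since tendon library 2 was the highest of the tendon libraries in all 14 called genes and tendon library 3 the lowest in 12. Ifit2 and Ifit3 rose by 5.79 ± 0.68 and 5.19 ± 0.63, Oas1a, a sensor of double-stranded RNA, by 4.73 ± 0.68, Usp18, which removes Isg15 from proteins, by 2.74 ± 0.59 and the GTPase Gbp2 by 1.77 ± 0.38. Irf7, the factor that amplifies type I interferon, was not called (1.32 ± 0.49, adjusted p = 0.0748). In the interaction test, which asks whether the tissue difference itself differs between neonates and adults, 12 of the 23 genes had a larger difference in neonates (2.06% of all genes did). Without adult tendon library 3 the count was 15, in a fit that called 2116 of 13956 genes in either direction. Rsad2 differed by only 0.48 between adult tendon and adult spleen (adjusted p = 0.771), with an interaction of 6.77 (adjusted p = 0.00551), and Oas1a by -0.22 (adjusted p = 0.883), with an interaction of 4.96 (adjusted p = 0.00697). The median of the list was 0.32 in adults. The macrophage share was 3.66, 2.89 and 1.74% in tendon libraries 1 to 3. What part macrophage transcripts had in this group was not tested.

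Heat shock genes were higher in tendon in 9 of 10 cases, with a median of 3.1. Between 8 and 10 were higher when 1 library was left out, 10 without adult tendon library 3. Hspa1a, the inducible chaperone HSP70, was at 5450, 2170 and 2100 CPM in tendon and 0.902, 2.51 and 1.07 CPM in spleen (11.43 ± 0.75, adjusted p = 5.93e-08). Its neighbour Hspa1b is nearly identical in sequence, so the division of reads between them is uncertain, and it showed the same pattern (9.12 ± 1.33, adjusted p = 0.00139). The promoter of Hspa1a is given because the heat shock factor is known to act on it, over the 250 bases at chr17:34972157-34972406 (minus strand, GRCm38.p6, RefSeq), with the pair of inverted units GAANNTTC in capitals.
Hspa1a: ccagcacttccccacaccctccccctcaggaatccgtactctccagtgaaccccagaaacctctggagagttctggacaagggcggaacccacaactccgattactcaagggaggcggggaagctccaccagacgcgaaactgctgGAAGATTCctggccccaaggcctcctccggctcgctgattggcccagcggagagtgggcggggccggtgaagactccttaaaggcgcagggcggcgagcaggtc
The pair occurred in 6 of 13 windows of the list (46.2%) and in 6.69% of all windows, and its motif was chosen with the values known. Hsp90aa1, a chaperone of signalling proteins, was at 3770, 1790 and 1730 CPM in tendon and 203, 209 and 184 CPM in spleen (3.61 ± 0.39, adjusted p = 1.03e-05). Hspa8, the constitutive member of the HSP70 family, rose by 2.08 ± 0.43 (adjusted p = 0.00328) from 1280, 1000 and 924 CPM to 7000, 3490 and 3110 CPM. The small heat shock protein Hspb1 was at 230, 106 and 31.1 CPM in tendon, while a single spleen library held any count (0.496 CPM). Tendon library 1 was the highest in 8 of the 9 called genes.

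Immediate early genes, which cells switch on within minutes of a stimulus or of handling, were higher in tendon in 14 of 20 cases and lower in none. Their median was 2.67. The count was the same without adult tendon library 3 and between 10 and 14 over the fits that left out 1 library. Atf3, a stress-induced transcription factor, was at 844, 567 and 337 CPM in tendon and 0.361, 0 and 0 CPM in spleen (10.83 ± 0.66, adjusted p = 5.4e-08). Fos was at 1160, 990 and 586 CPM in tendon and 14.2, 3.76 and 8.04 CPM in spleen (6.58 ± 0.75, adjusted p = 4.1e-05). Its AP-1 partner Jun was at 733, 583 and 378 CPM in tendon and 23.4, 11.3 and 12.3 CPM in spleen (5.11 ± 0.44, adjusted p = 1.02e-06). The 3 genes had every tendon library above every spleen library. Dusp1, a phosphatase that ends MAP kinase signals, rose by 4.85 ± 0.5 (adjusted p = 7.17e-06), Klf6 by 2.67 ± 0.36 (adjusted p = 8.08e-05) and Ier3 by 7.43 ± 1.18 (adjusted p = 0.00217). The labels do not describe how either tissue was broken up before the sort, and the part of cell isolation in the heat shock and immediate early genes was not tested.

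Chemokine genes had the largest median of the functional lists, 9.07. Of 19 genes, 13 were higher in tendon and none was lower. Cxcl1 and Cxcl2 attract neutrophils, and their promoters are shown because NF-kappaB is known to control both. The 250 bases at chr5:90890995-90891244 (Cxcl1) and chr5:90903649-90903898 (Cxcl2), both on the plus strand of GRCm38.p6 from RefSeq, carry the NF-kappaB consensus in capitals, in the same 11 letters.
Cxcl1: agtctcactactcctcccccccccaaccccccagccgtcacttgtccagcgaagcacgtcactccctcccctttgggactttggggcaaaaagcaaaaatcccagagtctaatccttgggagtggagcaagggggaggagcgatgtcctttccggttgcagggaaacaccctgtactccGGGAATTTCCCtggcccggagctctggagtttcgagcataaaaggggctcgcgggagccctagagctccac
Cxcl2: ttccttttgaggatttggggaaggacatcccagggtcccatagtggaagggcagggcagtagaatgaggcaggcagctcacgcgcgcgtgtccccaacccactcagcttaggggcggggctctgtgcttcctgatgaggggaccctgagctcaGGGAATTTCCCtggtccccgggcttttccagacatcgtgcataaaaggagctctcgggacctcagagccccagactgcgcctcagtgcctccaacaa
The consensus, which was also chosen with the values known, occurred in 5 of 13 windows of the list (38.5%) and in 7.25% of all windows. Cxcl2 was at 2820, 2190 and 720 CPM in tendon and 0.225, 1.25 and 0 CPM in spleen (12.69 ± 0.84, adjusted p = 5.93e-08). Cxcl1 was at 1360, 1680 and 763 CPM in tendon and had a single count in spleen, a ratio of 33600 with a 95% counting interval of 6030 to 1330000. Its call was lost without spleen library 1, 2 or 3. Ccl4, which recruits monocytes and T cells, was at 7010, 9450 and 3230 CPM in tendon and 4.82, 0 and 12.3 CPM in spleen (10.06 ± 1.84, adjusted p = 0.00681), and Ccl3 rose by 9.07 ± 1.36 (adjusted p = 0.00164). The T cell and macrophage chemokine Ccl5 rose from 87.2, 71.4 and 63.3 CPM to 505, 1090 and 363 CPM (3.14 ± 0.55, adjusted p = 0.000856). Cxcl10, an interferon-induced ligand of Cxcr3, was at 1910, 2580 and 760 CPM in tendon and 4.78, 6.26 and 6.43 CPM in spleen (8.27 ± 0.96, adjusted p = 0.000118). The monocyte attractants Ccl7, Ccl2 and Ccl12 had no count in spleen and 5210, 4770 and 1360 CPM, 2610, 1430 and 763 CPM, and 852, 824 and 244 CPM in tendon. They were at least 41200-fold, 20100-fold and 6780-fold higher, yet none of them was called (adjusted p = 0.0835, 0.0532 and 0.0541). Ccl7 and Ccl12 were called without adult tendon library 3, and Ccl2 and Ccl12 without adult tendon library 1. Over fits that left out 1 library, between 7 and 17 chemokines were called, with 17 when adult tendon library 3 was left out and 7 without spleen library 1, 2 or 3.

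Of 16 inflammatory cytokine genes, 11 were higher in tendon and none was lower, with a median of 6.8. The count was 12 without adult tendon library 3 and 6 without spleen library 1. Tnf was at 1170, 980 and 449 CPM in tendon and 14.7, 12.5 and 2.14 CPM in spleen (6.43 ± 0.95, adjusted p = 0.000814). Il1a, an alarm cytokine, was at 410, 594 and 230 CPM in tendon and 0.271, 0 and 1.07 CPM in spleen (10.01 ± 1.8, adjusted p = 0.00575), a call lost without spleen library 1 (9.04). Il1rn, the natural antagonist of the IL-1 receptor, rose with it, to 626, 2500 and 246 CPM from 0.812, 0 and 0 CPM (10.81 ± 1.55, adjusted p = 0.00137). Both the cytokine and its antagonist were thus higher in tendon. Il15, which sustains T and NK cells, was at 59.4, 216 and 66.9 CPM against 0.316, 0 and 0.536 CPM (8.31 ± 0.94, adjusted p = 1.52e-05). Il33, the ligand of Il1rl1, was at 45.3, 36.5 and 33.5 CPM in tendon and 0.271, 0 and 0 CPM in spleen (7.37 ± 1.17, adjusted p = 0.000591), so ligand and receptor were both higher there. Csf2 was at 31.8, 6.35 and 14.3 CPM in tendon and without a count in spleen, at least 240-fold higher. Among helper genes, the type 2 cytokine receptor Il4ra was higher in tendon (356, 421 and 340 CPM against 151, 115 and 80.4 CPM, 1.68 ± 0.37, adjusted p = 0.00465). Of the lists for type 1, type 2 and type 17 helper cells, 2 of 10, 2 of 6 and 0 of 6 genes were higher and 2, 0 and 2 were lower. With adult tendon library 3 left out, 3, 2 and 1 were higher and 2, 0 and 2 lower, and leaving out other libraries moved counts this small as well.

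Growth factor genes were higher in tendon in 12 of 18 cases, with a median of 4.45 and none lower. Leaving out adult tendon library 3 gave 12 higher and 1 lower, and leaving out adult tendon library 1 also gave 1 lower. Over all fits that left out 1 library, between 8 and 12 were higher. Igf1, a growth factor of tendon and muscle repair, was at 389, 372 and 313 CPM in tendon and 5.64, 15 and 8.58 CPM in spleen (5.34 ± 0.95, adjusted p = 0.003). Igf2, a fetal growth factor expressed from the paternal allele, was at 42.1, 47.7 and 153 CPM in tendon, with 3 counts in spleen and a ratio of 400 (95% counting interval 136 to 1950). Grn, the growth factor progranulin, was at 2800, 2150 and 1340 CPM in tendon and 181, 162 and 301 CPM in spleen (3.29 ± 0.57, adjusted p = 0.000781). In these 3 genes the tissues did not overlap. Vegfa, which drives vessel growth, was at 14.7, 49.2 and 28.7 CPM in tendon and 0.18, 0 and 0.536 CPM in spleen (6.86 ± 1.21, adjusted p = 0.00124), and Osm, an IL-6 family cytokine, rose by 3.38 ± 0.51 (adjusted p = 0.000242). Igf1 and Grn are also transcripts of macrophages and Igf2 of fibroblasts.

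Complement and scavenger receptor genes, which tissue macrophages typically express, were higher in 13 of 16 cases and lower in none, with a median of 7.34. The count was 14 without adult tendon library 3 and 8 without spleen library 1 or 3. Mrc1, the mannose receptor CD206, was at 1550, 1410 and 1080 CPM in tendon and 4.96, 16.3 and 3.22 CPM in spleen (7.57 ± 1.08, adjusted p = 0.00085). Stab1, a scavenger receptor that clears matrix fragments, was at 993, 843 and 777 CPM against 0.451, 1.25 and 0 CPM (10.86 ± 0.92, adjusted p = 1.47e-06). Gas6, a bridging molecule for the uptake of dying cells, was at 696, 489 and 349 CPM against 0.18, 0 and 0.536 CPM (11.03 ± 1.87, adjusted p = 0.00422). All 3 genes separated the tissues with tendon libraries near each other. Cd163, the haemoglobin scavenger receptor, rose by 6.85 ± 0.9 (adjusted p = 0.00025), C3, the central complement protein, by 4.69 ± 0.92 (adjusted p = 0.00263) and C4b by 8.83 ± 1.2 (adjusted p = 0.000342). Lyve1, a hyaluronan receptor of a macrophage subset and of lymphatic vessels, was uneven among tendon libraries, at 316, 25.4 and 62.2 CPM, with 1 count in spleen. Of the macrophage list, Apoe was at 12200, 10400 and 4210 CPM in tendon and 85.5, 122 and 64.3 CPM in spleen (6.63 ± 1.83, adjusted p = 0.0412) and C1qa at 950, 739 and 316 CPM against 8.61, 22.6 and 11.8 CPM (5.64 ± 1.55, adjusted p = 0.0398). Tyrobp was higher in every tendon library but not called (2.19 ± 1.31, adjusted p = 0.316). The Lyz2 call (5.87 ± 1.69, adjusted p = 0.0484) was lost in 9 of 12 fits that left out 1 library (5.46 to 6.15), the Apoe and C1qa calls in 8 each (6.31 to 6.86 and 5.27 to 6.03), and the Csf1r call (5.16 ± 1.23, adjusted p = 0.0203) without spleen library 1, 2 or 3 (4.94, 5.6 and 4.96). Adult tendon library 3, with its macrophage share of 1.53%, shares in the spread behind these tests, and without it all 20 macrophage genes were called. Tendon library 1 was the highest in 12 of the 15 called macrophage genes and tendon library 3 the lowest in 14.

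Matrix proteases and their inhibitors were higher in 13 of 18 cases, with a median of 3.91. Between 9 and 15 were higher when 1 library was left out, 14 without adult tendon library 3. Ctsb, a lysosomal protease, was at 7640, 6670 and 3790 CPM in tendon and 550, 482 and 642 CPM in spleen (3.43 ± 0.41, adjusted p = 2.48e-05), and Ctsd, another, rose by 2.63 ± 0.39 (adjusted p = 0.000221). Mmp14, a membrane-bound collagenase, was at 67.7, 291 and 105 CPM against 12.4, 15 and 3.75 CPM (3.91 ± 0.84, adjusted p = 0.00575). Timp2, an inhibitor of such enzymes, was at 194, 113 and 208 CPM against 32.9, 23.8 and 27.3 CPM (2.6 ± 0.5, adjusted p = 0.00173). Mmp2, the gelatinase of fibroblasts, was at 15.3, 50.8 and 90.9 CPM in tendon with 1 count in spleen. It was lowest in library 1 and highest in library 3, as were the fibrillar collagen genes Col1a1 (54.6, 513 and 1170 CPM) and Col1a2 (71.6, 456 and 818 CPM), which reached at most 1.07 CPM in spleen. Plau, the urokinase of plasmin activation, was at 152, 157 and 43 CPM, also with 1 count in spleen. Of the 12 fibroblast genes tested, 11 were called, and tendon library 3 was the highest in 10 of them, whereas the macrophage genes were highest in library 1.

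Genes of lipid handling were higher in 8 of 16 cases, with a median of 1.57. Without adult tendon library 3, 10 were higher and 1 lower, and 5 were higher without spleen library 2 or tendon library 2. Without tendon library 3, 1 was lower. Plin2, the coat of lipid droplets, was at 1780, 1630 and 548 CPM in tendon and 38.2, 25.1 and 32.7 CPM in spleen (5.35 ± 0.48, adjusted p = 1.47e-06). Fabp5, a fatty acid carrier, was at 886, 896 and 330 CPM against 38.4, 23.8 and 22.5 CPM (4.62 ± 0.53, adjusted p = 1.95e-05), and Fabp4, its relative in fat cells and macrophages, rose by 9.42 ± 0.98 (adjusted p = 7.17e-06). Cd36, a fatty acid and scavenger receptor, was at 645, 392 and 323 CPM against 8.39, 20 and 5.36 CPM (5.46 ± 1.05, adjusted p = 0.00571). The remaining 8 lipid genes were not called. In glycolysis and hypoxia, 11 of 20 genes were higher and 2 lower, with a median of 1.37. The counts were 13 and 2 without adult tendon library 3, and the lower count was 0 without spleen library 1, spleen library 2 or tendon library 2. Hk2, the inducible hexokinase, was at 124, 194 and 151 CPM in tendon and 2.8, 1.25 and 2.14 CPM in spleen (6.02 ± 0.66, adjusted p = 1.08e-05). Slc16a3, the lactate exporter, rose by 3.27 ± 0.55 (adjusted p = 0.000678) and Aldoa, a glycolytic enzyme, by 1.66 ± 0.34 (adjusted p = 0.00311). Hmox1, which breaks down haem, was at 6890, 5420 and 1980 CPM in tendon and 52.7, 32.6 and 32.7 CPM in spleen (6.9 ± 1.17, adjusted p = 0.00332).

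Inhibitory receptors and their ligands were higher in 5 of 13 cases and lower in 1, with a median of 0.67. In the fit without adult tendon library 3, 5 were higher and 2 lower, and 3 were higher without spleen library 2, spleen library 3 or tendon library 1. Cd274, the ligand PD-L1, was at 420, 766 and 246 CPM in tendon and 37.1, 61.4 and 34.3 CPM in spleen (3.45 ± 0.51, adjusted p = 0.000195). Lgals3, a galectin of activated macrophages, rose by 4.67 ± 0.73 (adjusted p = 0.000707). Btla, an inhibitory receptor of lymphocytes, was the gene that fell, from 122, 134 and 124 CPM in spleen to 18, 1.59 and 40.6 CPM in tendon (-2.75 ± 0.57, adjusted p = 0.00315). Of 14 antigen presentation genes, the costimulatory ligands Cd86 (3.3 ± 0.54, adjusted p = 0.000543) and Cd80 (3.04 ± 0.73, adjusted p = 0.00848) were higher and the other 12 were not called (3 higher without adult tendon library 3). The share called higher, 14.3%, was near the 10.8% of all genes. The list medians of 0.67 and 0.45 turned negative on the deposited TPM values (-0.27 and -0.44). Of 20 proliferation genes none was higher and 3 were lower, Mcm6 (-1.6 ± 0.38, adjusted p = 0.00777), Rrm2 (-1.37 ± 0.35, adjusted p = 0.0119) and Top2a (-1.13 ± 0.32, adjusted p = 0.0204), which serve DNA replication. Without adult tendon library 3, 8 were lower, and without spleen library 1, 1 was. The Mcm6 call was lost without tendon library 3 (-1.3), the Rrm2 call without spleen library 1 (-1.18), and the Top2a call without spleen library 1 (-1.06), spleen library 3 (-1.21) or tendon library 2 (-1.03).

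**Figure D4:**
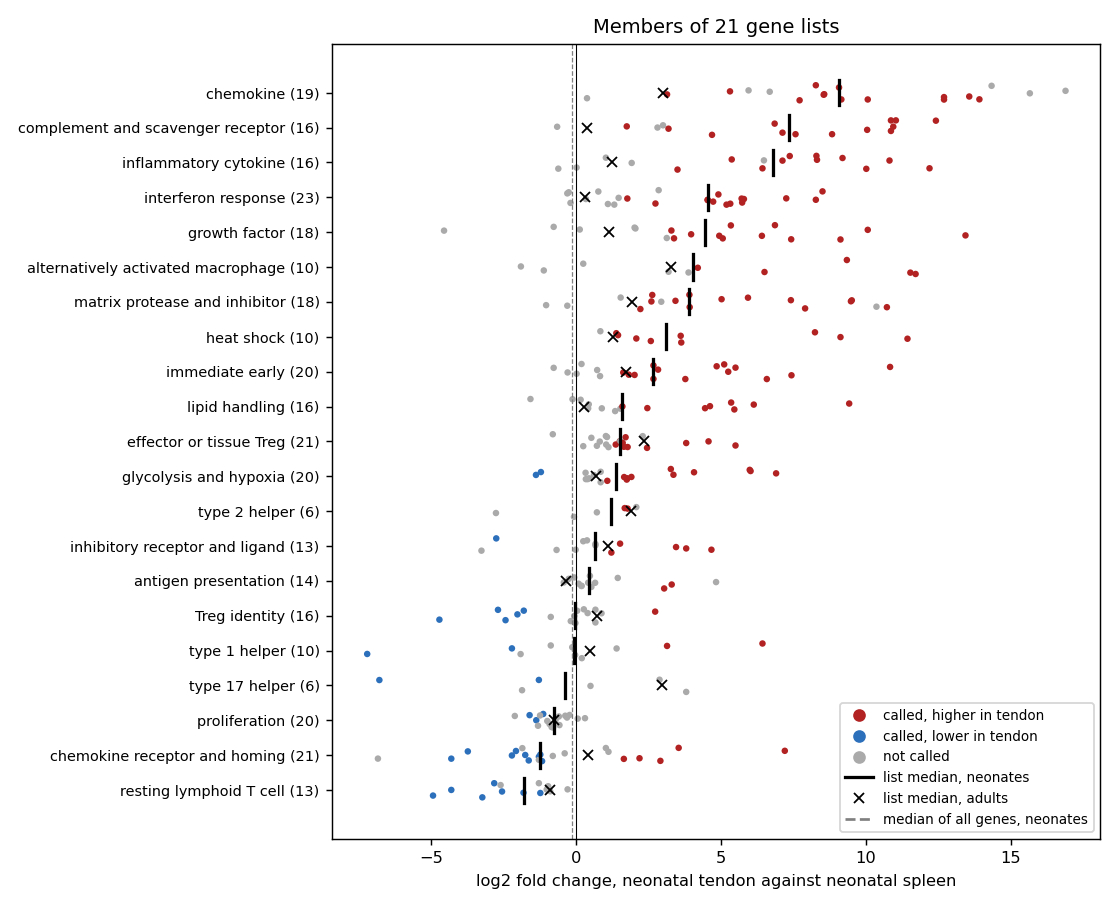
Log2 fold change of neonatal tendon against neonatal spleen for the tested members of 21 functional gene lists (number tested in brackets), sorted by the list median (black bar), with the adult median as a cross and the median of all genes as a dashed line. Chemokine, complement and cytokine genes reach the highest medians (9.07, 7.34 and 6.8), resting lymphoid genes the lowest (-1.81), and fitted values of genes with no count in spleen depend on the prior count.

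The 15 genes with the largest differences in each direction, among called genes of at least moderate abundance with no overlap of the tissues, repeat these groups. Among the 15 most increased were the chemokines Cxcl1, Ccl8, Cxcl3 and Cxcl2, the cytokines Il6 and Csf3, and the macrophage receptors C3ar1, Clec4e and Clec4d. Col3a1, a fibroblast collagen, and the secreted matrix protein Cyr61 were among them as well, along with the stress-induced hormone Gdf15, the myelin protein Pmp22, the scaffold protein Ahnak2 and the imprinted long noncoding RNA H19. H19 (ENSMUSG00000000031, chr7:142575529-142578143, minus strand) was at 187, 181 and 165 CPM in tendon and without a count in spleen, at least 1530-fold higher. It had the least spread of these genes among tendon libraries. Cyr61 (chr3:145646976-145649981, minus strand) was at 175, 98.5 and 120 CPM, at least 1370-fold higher. Pmp22 (chr11:63128982-63159547, plus strand) was at 1530, 1310 and 536 CPM with 1 count in spleen, a ratio of 36300 (95% counting interval 6520 to 1440000). Gdf15 was at 468, 389 and 172 CPM, at least 3700-fold higher, and Col3a1 at 184, 125 and 624 CPM, at least 1680-fold higher. Il6 was at 211, 149 and 71.7 CPM (at least 1650-fold) and Csf3 at 176, 259 and 19.1 CPM (at least 1450-fold). Clec4e was at 490, 1170 and 366 CPM, Clec4d at 325, 472 and 74.1 CPM, Cxcl3 at 291, 270 and 52.6 CPM, Ccl8 at 1330, 761 and 452 CPM, C3ar1 at 881, 1100 and 394 CPM and Ahnak2 at 184, 245 and 69.3 CPM, all against at most 3 counts in spleen. Several of these calls were lost when 1 library was left out. Leaving out spleen library 1 ended those of Cxcl1, Ccl8, Gdf15, Col3a1, Clec4e, Clec4d, Cxcl3, C3ar1, Ahnak2, Csf3 and Il6 (log2 values 11.4 to 13.94), and Cxcl1 and C3ar1 were also lost without spleen library 2 (13.84 and 12.34) or 3 (15.35 and 12.26). Il6 was lost as well without adult spleen library 2 (12.23), Ccl8 in 5 fits, Gdf15 and Ahnak2 in 6 and Clec4d in 8, with direction kept in each. Cxcl2, Pmp22, H19 and Cyr61 kept their calls in all 12 fits.

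Among the 15 most decreased genes were Tcf7 and Gpr83, described above, and further genes of T cells and plasmacytoid dendritic cells. Cd96, a receptor of T and NK cells (chr16:46035657-46120251, minus strand), was at 10, 0 and 0 CPM in tendon and 170, 207 and 140 CPM in spleen (-4.9 ± 0.64, adjusted p = 7.62e-05). Dtx1, a regulator of Notch signalling (chr5:120680202-120711927, minus strand), had 1 count in tendon and 100, 97.7 and 78.8 CPM in spleen, a spleen to tendon ratio of 801 (95% counting interval 144 to 31700). Siglech and Klk1, markers of plasmacytoid dendritic cells, were at 7.35, 11.1 and 7.17 CPM and 0, 1.59 and 2.39 CPM in tendon and at 212, 203 and 373 CPM and 48.9, 60.1 and 86.9 CPM in spleen. Siglech was low but present in tendon, with 62 counts, while Klk1 had 2 counts there, under the floor of 3. Art2b, an ADP-ribosyltransferase of T cells, differed by -4.71 ± 1.13 (adjusted p = 0.0153), Cd7, a T cell surface protein, by -4.38 ± 0.88 (adjusted p = 0.0025), Aff3 by -4.22 ± 0.8 (adjusted p = 0.00165), Nsg2 by -5.08 ± 0.76 (adjusted p = 0.000239) and the thromboxane receptor Tbxa2r by -5.28 ± 1.05 (adjusted p = 0.00299). Gsta4, a glutathione transferase, had 4 counts in tendon against 64, 17.5 and 20.4 CPM in spleen, and Unc5cl had 1 count against 27, 33.8 and 27.9 CPM. Btd, the enzyme biotinidase, differed by -4.13 ± 0.71 (adjusted p = 0.000737) but shares exonic sequence with Hacl1 on the opposite strand (520 and 617 counts), and the use of strand in the counting is not given in the sources used here. The Dtx1 call was lost without tendon library 1 (-6.55) or 2 (-8.93) and the Art2b call without tendon library 1 (-4.08) or 2 (-4.28). Without tendon library 1, the only tendon library with any count of the gene, the values of Tbxa2r (-10.16), Nsg2 (-10.7) and Cd96 (-12.31) moved by more than 1.5 times.

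The same tissue contrast in adults gave 349 calls (2.67%), or 2971 without adult tendon library 3. Of the neonatal calls, 216 were also called in adults in the same direction, 10.2% of the neonatal and 61.9% of the adult calls. The interaction test called 399 genes (3.06%), 269 of them (2.06%) with a more positive and 130 (0.996%) with a more negative difference in neonates, and 2116 without adult tendon library 3. Gzmb rose in both ages (5.5 and 5.98 on the log2 scale), as did Il10 (4.57 and 3.75), with interactions of -0.48 and 0.83 that were not called (adjusted p = 0.791 and 0.588). Il1rl1 was the single effector gene with a called interaction, 1.78 in neonates and 5.62 in adults (interaction -3.84, adjusted p = 0.0154). Without adult tendon library 3, 9 of 21 effector genes had a smaller difference in neonates, among them Rora (interaction -2.57, adjusted p = 0.000281), Klrg1 (-1.81, 0.00271), Icos (-1.3, 0.0236) and Tnfrsf9 (-1.2, 0.0405). The background of that fit is 2116 calls in either direction among 13956 genes. Entpd1 rose in neonates (2.73) and had a difference of 0.22 in adults (interaction 2.51, adjusted p = 0.0101). In the resting list, 5 of 13 genes had a more negative difference in neonates, among them Lef1 (-2.82 and -0.9, interaction adjusted p = 0.0316). The effector list had a median of 1.51 in neonates and 2.35 in adults. Among chemokines, Cxcl2 was higher in both ages and more so in neonates (12.69 and 7.25, interaction adjusted p = 0.00835). The macrophage share of adult tendon was 0.0368 to 1.53% and that of adult spleen 0.351 to 0.541%, an overlap that rests on adult tendon library 3. The other adult tendon libraries (0.0368 and 0.107%) lay lower than every adult spleen library. Without library 3, 14 of 20 macrophage genes were called lower in adult tendon, in a fit with 2971 adult calls in either direction among 13956 genes. With library 3 kept, 0 of the 20 were called lower. The part of this age difference in macrophage share in the interactions was not tested.

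**Figure D5:**
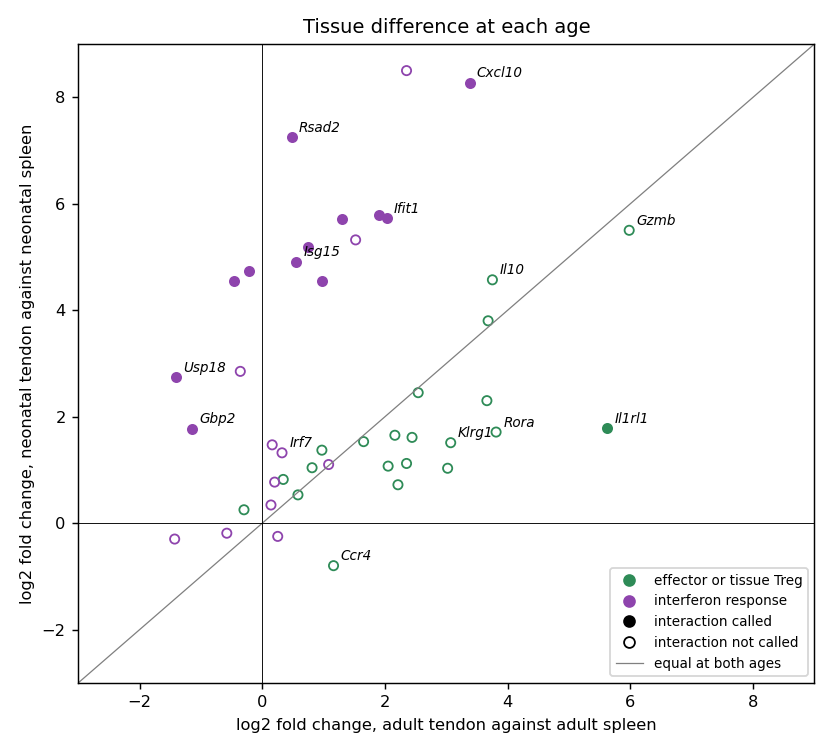
Log2 fold change of tendon against spleen in neonates (vertical axis) against the same in adults (horizontal axis) for effector or tissue Treg genes (green) and interferon response genes (purple), with filled points where the interaction was called and the line of equal change in grey. Of the interferon genes, 12 of 23 are filled and lie over the line. Of the effector genes Il1rl1 is filled and lies under it. Without adult tendon library 3 the interaction was called for 9 of 21, in a fit that called 2116 genes.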

How the data were processed

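RNA of 12 sorted Treg libraries was measured by bulk RNA-seq. Per the submitters' processing notes, reads were trimmed with Trimmomatic 0.36, aligned to GRCm38 with STAR 2.5.2b and counted with featureCounts of Subread 1.5.2. The authors deposited whole-number counts per gene and TPM values, which equal the counts over gene length rescaled to 1 common total per library. The counts were tested with edgeR 4.0.16 (TMM, filterByExpr with a minimum count of 10, robust quasi-likelihood fit, 1 mean per group over 12 libraries), with Benjamini-Hochberg adjustment over 13049 genes and a threshold of 0.05. Tested on simulated data with 11851 genes, 0.0601% of unchanged genes were called, and 6, 54, 96 and 100% of genes changed by 1, 2, 3 and 5 on the log2 scale. The changed genes, 50 of each size, were all well counted in spleen, and as many rose as fell. These shares therefore do not cover genes with few or no spleen counts, nor data in which more genes rise than fall. Each SE was derived from the test, as the absolute log2 difference over the square root of its F statistic, and is approximate. Marker shares were compared by exact permutation tests. Intervals and floors (3 counts over a group) cover counting error only. The genes named are list members and the 15 largest and 15 most negative called differences without overlap (average log2 CPM 4 or more), without receptor segments and unnamed models. Members and lists were chosen with earlier results of these data known. Samples were grouped by their titles. Alternatives comprised DESeq2 1.42.0, limma 3.58.1 on log2(TPM + 1), other filters and scalings, a replicate block, and leaving out each library. Some genes are not reported here.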

Additional observations from a re-analysis of the deposited data

Results flagged for a closer look

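The tissue difference itself differed between neonates and adults in 56 of the 147 genes followed, by edgeR's interaction term at an adjusted p under 0.05. Over all genes tested the share was 3.06%. Of the 147 genes, 133 had been called for tissue in neonates, so the count of 56 does not describe their gene groups as a whole. Values in brackets are the neonatal minus the adult log2 difference of tendon against spleen. The neonatal difference was more positive for these interferon response genes: Rsad2 (6.77), Oas1a (4.96), Cxcl10 (4.89), Ifit3 (4.45), Isg15 (4.35), Usp18 (4.15), Ifit2 (3.88), Ifit1 (3.7) and Gbp2 (2.93). Among stress and immediate early genes it was more positive for Atf3 (7.2), Fos (4.4), Jun (3.32), Hspa1a (3.18), Hsp90aa1 (2.16) and Hmox1 (6.38). Of the cytokine, chemokine and growth factor genes, Il1a (10.51), Igf2 (9.89), Il15 (9.79), Il1rn (8.59), Igf1 (5.68), Cxcl2 (5.43), Tnf (5.24), Osm (3.03), Grn (3.51) and Ccl5 (2.89) had a more positive value in neonates. A more positive neonatal value was also found in macrophage, protease and lipid genes, namely Lyve1 (14.77), Clec4e (11.63), Plau (8.63), Cd163 (7.91), Mrc1 (6.51), Cd36 (6.12), C3 (6.06), Fabp4 (6.05), Ctsb (3.55), Fabp5 (3.3), Plin2 (3.2) and Ctsd (3.17). The hexokinase Hk2 (5.04), the ectoenzyme Entpd1 (2.51), the receptor Ccr1 (4.44) and the costimulatory ligand Cd86 (4.19) also had one. The neonatal difference was more negative for resting and homing genes, Lef1 (-1.92), Il7r (-2.15), Itgb7 (-2.17), Satb1 (-2.32), Itgal (-2.56) and Ets1 (-2.59). It was more negative as well for T cell and Treg genes, Zap70 (-1.98), Nt5e (-2.39), Cd4 (-2.42), Ikzf4 (-2.91), Cd96 (-3.49) and Il1rl1 (-3.84). The other genes with a more negative value were Siglech (-4.91), Unc5cl (-5.9) and Klk1 (-8.15). Lyve1, Clec4e, Plau and Igf2 had at most 3 counts over the neonatal spleen libraries, and Unc5cl and Klk1 at most 3 over those of tendon. The sizes of their values are therefore imprecise. All 56 were called without adult tendon library 3 too, and all 56 kept their sign when any 1 library was left out, but 17 stayed called in each of those fits. Of the 91 genes with no called interaction, 36 were called without adult tendon library 3, in a fit that called 2116 genes.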

How the results depend on the processing

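Against 2109 neonatal calls, 714 genes were called with neonatal libraries 2 and 3 only and 1080 for a change over 1 on the log2 scale. The 5% rRNA-like term leaves tendon library 1 alone for neonatal tendon, so no count of calls is given for it. DESeq2's Wald test called 2570, limma on TPM 2857 and voom 2861. Leaving out 1 library gave 1150 to 3339. The adult count of 349 became 752 with DESeq2's Wald test, 34 with limma on TPM, 4891 with voom, 131 for a change over 1, 765 without a filter and 224 with the replicate block, and 131 to 2971 when 1 library was left out. The interaction count of 399 became 858, 165, 2576, 93 and 974 under the same first 5 settings, 205 with the replicate block, 13 with neonatal libraries 2 and 3 only, 117 with the 5% rRNA-like term, and 97 to 2116 when 1 library was left out. With the replicate block 1807 neonatal genes were called, 1764 of them shared. As deviations from their group means, same-numbered neonatal tendon and spleen libraries correlated at 0.25, 0.04 and 0.041. Differently numbered ones correlated at -0.117 to 0.053. So few pairs cannot decide whether the numbers pair the libraries. The 3% rRNA-like term (2056 neonatal calls) was chosen after seeing the data. Of 133 called genes among the 147 followed, 103 kept their call when any 1 library was left out and 71 under every alternative, and none changed direction. The alternatives include the 5% rRNA-like term. Foxp3 became 0.16 with neonatal libraries 2 and 3 only and 0.27 without tendon library 1 (-0.82 to 0.27 when 1 library was left out). Il2ra became 0.06 with DESeq2 and with its size factors, 0.05 at a mean count of at least 50, 0.02 without spleen library 2, 0.08 without tendon library 1 and 0.03 without tendon library 2 (-0.33 to 0.08 when 1 library was left out). Ctla4 became -0.15 on TPM. The causes were not tested. The depth of libraries 2 and 3 limits genes of low counts.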
